A study of Mus musculus with 16 samples.

Results

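Mouse chromosome 3 held 4665 of the 80367 ATAC-seq peaks that the study listed as differing between 2 kinds of small cell lung cancer (SCLC) cells, and these 4665 regions are described here in consecutive windows of 10 Mb. Every listed peak of the chromosome was taken, whichever its direction. Of these peaks, 1947 were more accessible in Hes1-GFPhigh cells (called opened) and 2718 were less accessible (called closed), an opened share of 41.7% against 50.8% for all listed peaks. Counting error alone gave a 95% Wilson interval of 40.3 to 43.2% for the chromosome. Single chromosomes ranged from 41.7% (chromosome 18, at the same value) to 71.1% (chromosome 11), and chromosomes 12 (43.2%) and X (43.5%) had intervals that overlapped that of chromosome 3. The lists were selected on the accessibility contrast itself, and the chromosome was chosen with its share known, so opened and closed counts are descriptions with no test.

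ATAC-seq marks open chromatin by where a transposase can insert sequencing adapters. Lung tumors of the TKO;Hes1 GFP/+ genotype were the source. Their floxed alleles of 3 genes, Rb, p53 and p130, were deleted in the lung by Ad-CMV-Cre instilled into the trachea at 8 to 12 weeks of age. The viral CMV promoter is not restricted to one cell type. Tumors were pooled within each mouse about 6 to 7 months later. Cells expressing GFP from the Hes1 locus (Hes1-GFP positive by the labels, GFPhigh) were sorted apart from GFPneg cells, and both groups carried the same deletions and the same Hes1 GFP allele. The 8 libraries, 4 of each group, came from 3 mice, with 1 mouse sampled again as a technical repeat, and each library was run on 2 lanes (16 runs). The study's methods state mixed sex for its tumor mice, without the sex of these 3. The files used gave no value per library, so neither depth nor the spread between libraries is known, and a more open site cannot be told apart from a larger share of cells with that site open.

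Hes1 is a Notch target that represses the neuroendocrine program, and in this tumor model GFPneg cells are neuroendocrine (NE) while GFPhigh cells have lost much of that state. NE cells express many neuronal genes. Outside the NE state, the coactivators YAP1 and TAZ act through TEAD factors. AP-1 and FOX factors bind regulatory elements in many cell types, and RBPJ carries Notch signals to DNA. Chromosomes are built of gene-rich stretches, often in the interior of the nucleus, and of gene-poor stretches, and a window summarises many genes of either kind.

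Marker genes on other chromosomes were checked against the labels by the nearest protein-coding start site. Hes1 had 26 opened and 11 closed listed peaks, and Rest and Yap1 had 3 opened peaks each and none closed. All 28 listed peaks of the NE gene Insm1 were closed, while Chga, an NE granule gene, had 8 opened and 6 closed. The leukocyte gene Ptprc, whose product CD45 was used to exclude cells, had 11 opened and 5 closed peaks, and the part of other cells in the chromosome 3 peaks was not tested.

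Sequences from the chromosome are shown for the strongest peaks and for genes that the results turn on, each as 200 bases of the forward strand of RefSeq GRCm38 (mm10), read as near to the peak centre as annotated exons allow. Strength here is the mean normalized count, the authors' average over all libraries. Capitals mark exact matches on either strand to any of 4 motifs. The letters searched were CATTCC for TEAD, TGANTCA for AP-1, TGTTTAC for FOX and TGGGAA for RBPJ, and no 2 marked matches overlap. Among all 80367 listed peaks, matches in the central 200 bp were found in 13.5%, 18.4%, 8.25% and 18.5%, in that order.

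The first set shows opened peaks at promoters of Notch and YAP/TAZ genes, and at distal sites. The Syde2 promoter peak had the highest mean normalized count of the chromosome (1221), and the stretch shown is chr3:145987670-145987869. The Notch2 promoter peak (430) is shown at chr3:98013772-98013971 and the Wwtr1 promoter peak (463) at chr3:57575911-57576110. The strongest Sox2 peak (248), intergenic and 97303 bp downstream, is at chr3:34747608-34747807. The strongest opened peak outside promoters with a TEAD match (416) lies in an intron 3694 bp from the Dnajc5b start, at chr3:19512209-19512408, and was picked for its match after the values were seen.
Syde2: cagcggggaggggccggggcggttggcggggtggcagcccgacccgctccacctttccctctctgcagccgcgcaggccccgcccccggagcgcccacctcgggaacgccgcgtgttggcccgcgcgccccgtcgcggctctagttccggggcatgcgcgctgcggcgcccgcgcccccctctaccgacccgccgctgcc
Notch2: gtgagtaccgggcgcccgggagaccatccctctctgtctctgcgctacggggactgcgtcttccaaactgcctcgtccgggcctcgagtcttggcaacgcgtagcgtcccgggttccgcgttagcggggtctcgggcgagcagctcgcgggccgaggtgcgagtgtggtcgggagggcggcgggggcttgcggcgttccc
Wwtr1: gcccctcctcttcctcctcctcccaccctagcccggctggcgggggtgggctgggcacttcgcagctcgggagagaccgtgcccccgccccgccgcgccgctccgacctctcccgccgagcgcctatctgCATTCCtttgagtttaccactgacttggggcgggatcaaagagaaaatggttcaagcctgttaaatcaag
Sox2: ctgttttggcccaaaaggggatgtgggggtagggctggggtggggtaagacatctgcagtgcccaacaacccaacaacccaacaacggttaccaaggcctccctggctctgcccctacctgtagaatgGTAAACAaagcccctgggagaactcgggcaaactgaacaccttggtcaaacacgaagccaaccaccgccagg
Dnajc5b: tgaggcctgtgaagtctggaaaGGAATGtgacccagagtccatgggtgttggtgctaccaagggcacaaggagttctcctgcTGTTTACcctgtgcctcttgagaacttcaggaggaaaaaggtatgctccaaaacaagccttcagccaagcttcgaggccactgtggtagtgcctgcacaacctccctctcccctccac

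The second set shows closed peaks, some of which hold AP-1 letters. The strongest closed peak of the chromosome (750) covers an exon of Lor, which encodes loricrin of the skin, at chr3:92080500-92081971, and its sequence is not shown. The strongest Hey1 peak (235), intergenic and at -28705 bp from the start site (upstream), is at chr3:8695861-8696060, and the strongest St6galnac5 peak (278), in an intron of the gene, is at chr3:152872588-152872787. The St6galnac5 peak was added after the values were seen. So was a Miga1 intron peak (622), the strongest closed peak outside promoters with AP-1 letters, at chr3:152308723-152308922.
Hey1: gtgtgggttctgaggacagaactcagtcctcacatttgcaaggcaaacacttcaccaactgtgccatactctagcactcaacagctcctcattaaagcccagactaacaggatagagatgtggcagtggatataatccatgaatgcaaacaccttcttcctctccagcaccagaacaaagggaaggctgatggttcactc
St6galnac5: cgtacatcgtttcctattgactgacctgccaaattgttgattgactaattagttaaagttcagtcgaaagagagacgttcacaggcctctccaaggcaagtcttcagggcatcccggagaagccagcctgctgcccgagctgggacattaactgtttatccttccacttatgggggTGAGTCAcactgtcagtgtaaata
Miga1: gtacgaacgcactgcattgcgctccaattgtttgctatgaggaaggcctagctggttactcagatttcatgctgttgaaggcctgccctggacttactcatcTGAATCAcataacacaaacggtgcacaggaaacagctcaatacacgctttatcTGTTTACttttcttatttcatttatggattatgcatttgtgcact

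Closed peaks outnumbered opened peaks along most of chromosome 3, and the opened peaks were most numerous in its gene-rich middle. The listed peaks spanned positions 3507867 to 159937200, so that 16 windows of 10 Mb held peaks, from 92 peaks between 40 and 50 Mb to 513 between 100 and 110 Mb. The last 39680 bp of the chromosome formed a partial window with 0 peaks. Opened peaks were the majority in 4 windows: 10 to 20 Mb (54.7%), 80 to 90 Mb (64.2%), 90 to 100 Mb (69.1%) and 100 to 110 Mb (53.4%). For the first and the last of these the intervals (46.4 to 62.7% and 49.1 to 57.7%) included an even split. The first fell to 49.5% with a minimum mean normalized count of 20, and the last to 49.8% without promoter peaks.

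**Figure D1:**
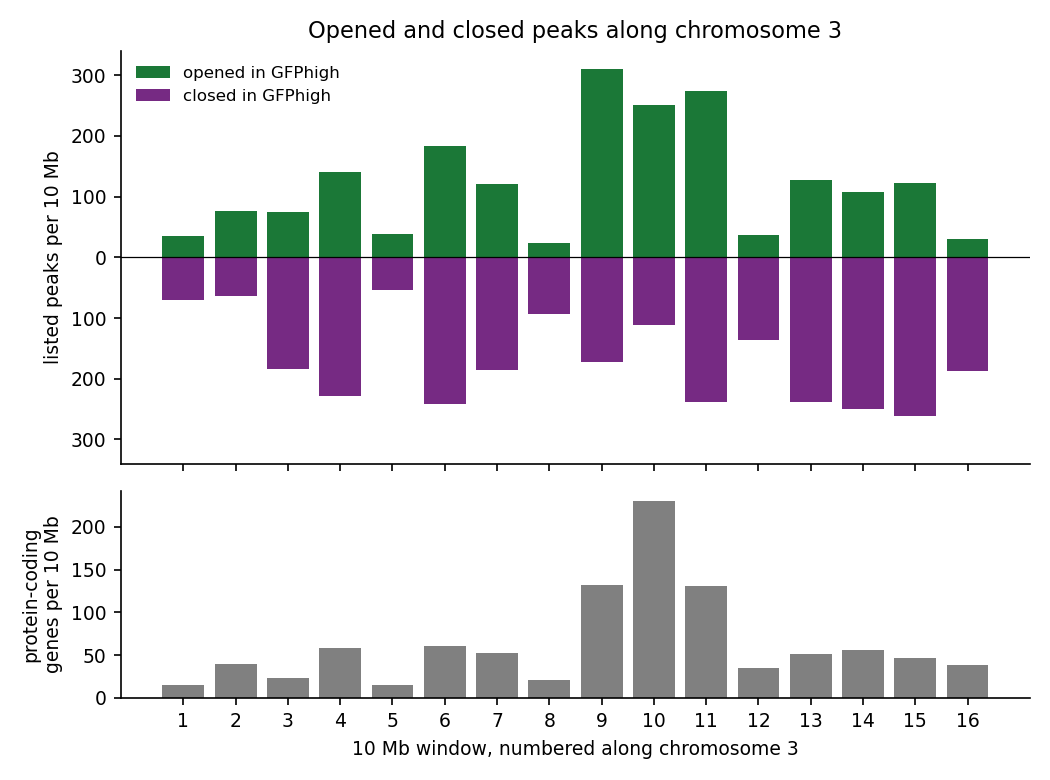
Listed peaks (upper panel, opened above and closed below the zero line) and annotated protein-coding genes (lower panel, counted by start site) in each of the 16 windows of 10 Mb, numbered 1 to 16 along chromosome 3. Windows 9, 10 and 11 hold 310, 250 and 274 opened peaks and 132, 230 and 131 genes, and window 16 holds 30 opened and 187 closed peaks.

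In the proximal part of the chromosome, from 0 to 10 Mb, 35 of 105 peaks were opened (33.3%), and the gene with the most peaks was the zinc finger gene Zfp704 (11 opened, 15 closed). Between 10 and 20 Mb 76 of 139 were opened, 12 of them at Dnajc5b, which had 4 closed peaks in that window. From 20 to 30 Mb the share was 28.7% (74 of 258), and 63 peaks lay nearest to Tbl1xr1, a subunit of the NCoR corepressor complex, with 24 opened and 39 closed. The window from 30 to 40 Mb held 140 opened and 228 closed peaks (38.0%). Its leading gene was Mecom, a zinc finger transcription factor gene, with 28 opened and 7 closed peaks there, so that the gene with the most peaks and its window leaned to opposite sides.

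The windows from 40 to 80 Mb all had shares under 50.8%. Between 40 and 50 Mb 38 of 92 peaks were opened (41.3%), led by Jade1 with 18 opened and 14 closed. From 50 to 60 Mb 183 of 424 were opened (43.2%), and Maml3, a coactivator of Notch transcription complexes, led with 18 opened and 32 closed. Between 60 and 70 Mb 120 of 306 were opened (39.2%), with 11 opened and 32 closed at Schip1. In the window from 70 to 80 Mb only 23 of 116 were opened (19.8%), and Rapgef2, which encodes an exchange factor for Rap GTPases, had 6 opened and 38 closed.

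In the middle of the chromosome, the 3 windows from 80 to 110 Mb each had over 100 protein-coding genes and held 834 opened peaks of 1358 (61.4%, interval 58.8 to 64.0%). The gene with the most peaks was Fbxw7 from 80 to 90 Mb (10 opened, 16 closed) and Notch2 from 90 to 100 Mb (13 opened, 6 closed). Fbxw7 leaned to closed in a window with 310 opened and 173 closed peaks.

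Past 110 Mb closed peaks were again the majority. The share was 21.3% from 110 to 120 Mb (37 of 174, led by Cdc14a with 6 opened and 12 closed) and 34.9% from 120 to 130 Mb (128 of 367, where Ank2, with 1 opened and 26 closed, tied with Bcar3). From 130 to 140 Mb it was 30.0% (107 of 357), and Ppp3ca, a catalytic subunit of calcineurin, had 13 opened and 26 closed. From 140 to 150 Mb it was 31.8% (122 of 384), with 20 opened and 55 closed at the adhesion receptor gene Adgrl2. The distal window from 150 to 160 Mb had the lowest share of the chromosome, 13.8% (30 of 217, interval 9.86 to 19.0%), and all 38 peaks of the sialyltransferase gene St6galnac5 were closed.

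Set against the 50.8% of all listed peaks, the whole interval lay lower in 11 of the 16 windows and higher in 2 (80 to 90 and 90 to 100 Mb), and it included that value in 3. On the other chromosomes, 249 windows held at least 50 listed peaks, and their shares ran from 1.89 to 94.0% with a median of 45.4%. Of these, 119 (47.8%) lay wholly lower and 73 (29.3%) wholly higher. The median over the chromosome 3 windows was 36.5%, and 8 of the 16 lay below the lower quartile of the other chromosomes' windows (35.6%). Even the distal window was not outside their range, since 4 windows elsewhere had lower shares.

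**Figure D2:**
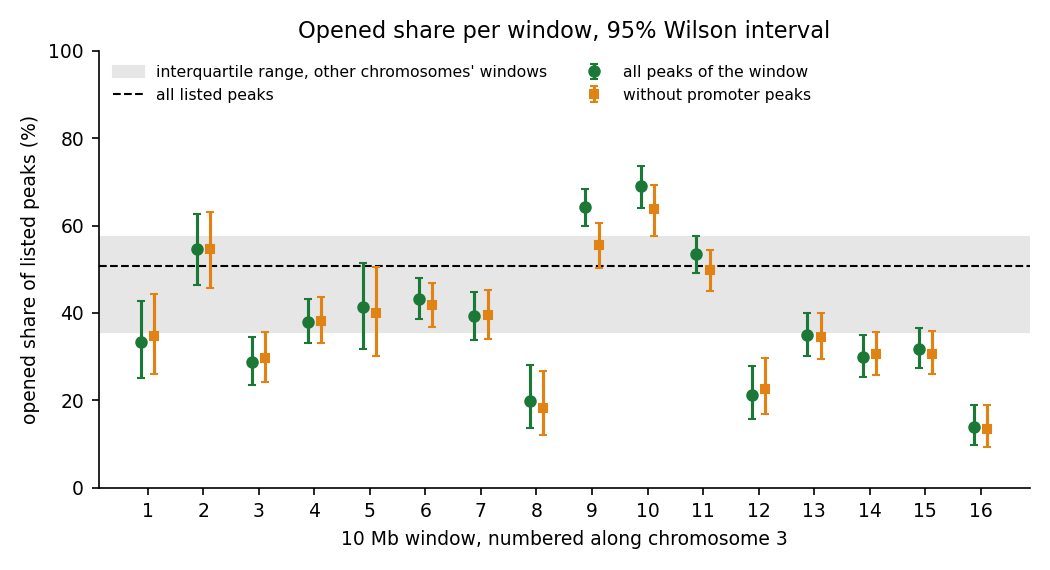
Opened share of listed peaks (%) in each 10 Mb window of chromosome 3 with 95% Wilson intervals, for all peaks (circles) and for peaks over 1 kb from any start site (squares); the dashed line is the 50.8% of all listed peaks and the band is the interquartile range of the windows of other chromosomes (35.6 to 57.4%). Shares are 64.2 and 69.1% in windows 9 and 10 and 13.8% in window 16, and the squares follow the circles.

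Window shares went with gene number and with base composition. Across the 16 windows the opened share had a Pearson r of 0.77 and a Spearman coefficient of 0.63 with the number of protein-coding genes. Across the 249 windows elsewhere the values were 0.64 and 0.70. With the median GC content of a window's peaks they were 0.64 and 0.53 on chromosome 3, and 0.75 and 0.71 elsewhere. These are descriptions, since all windows share the same libraries, and the parts of gene number and GC content were not tested. In the 13 windows with 100 genes or fewer, 33.7% of the 3307 peaks were opened (32.1 to 35.3%), against 44.0% (43.5 to 44.4%) in the 175 such windows elsewhere. In the 3 gene-rich windows the 61.4% stood beside 63.2% (62.7 to 63.8%) in 74 windows of other chromosomes. The gap between chromosome 3 and the pooled others was thus seen in windows with fewer genes, while the intervals of the gene-rich windows overlapped. The difference between these gaps was not tested.

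Promoters carried more opened than closed peaks. Within 1 kb of an annotated start site lay 640 listed peaks of the chromosome, of which 375 were opened (58.6%), beside 70.4% of all listed promoter peaks. By chromosome that promoter share ran from 30.0% (X) to 91.4% (chromosome 11), and chromosomes 12 (58.4%) and 18 (54.3%) also lay under chromosome 3. Away from promoters 39.1% of the chromosome's peaks were opened, beside 47.1% of all listed peaks over 1 kb from a start site. The share was 46.1% in exons, 39.2% in introns and 38.3% between genes, and on the other chromosomes it was 50.9%, 47.9% and 46.7%. In every one of these classes, as for all its peaks together, the chromosome 3 value was the lower one. In exons the interval was wide (38.4 to 54.0%, 154 peaks).

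The opened share of promoter peaks differed widely between windows. From 80 to 90 Mb 115 of 132 promoter peaks were opened (87.1%), from 90 to 100 Mb 85 of 103 (82.5%) and from 100 to 110 Mb 62 of 87 (71.3%). In the flanking window from 110 to 120 Mb only 1 of 15 was opened, in the window from 150 to 160 Mb 4 of 24, and from 0 to 10 Mb 0 of 4. Of the 1004 annotated protein-coding genes of the chromosome, 223 had opened promoter peaks alone, 110 had closed ones alone and 7 had both. The genes with opened promoters numbered 74, 70 and 35 in the 3 gene-rich windows, and at most 10 in any other window. Without promoter peaks the shares of the 3 windows were 55.6%, 63.7% and 49.8%, and that of the last window was 13.5%.

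Opened shares were lower farther from genes, on chromosome 3 and elsewhere. Within 1 kb of a protein-coding start site 62.7% of the 453 peaks were opened, from 1 to 10 kb 53.5% of 753, from 10 to 50 kb 43.5% of 1613, from 50 to 100 kb 33.6% of 789 and beyond 100 kb 27.7% of 1057. The values on the other chromosomes were 74.8%, 59.1%, 52.9%, 44.3% and 32.8%. The chromosome 3 share was lower in each band, as it was for all its peaks together.

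**Figure D3:**
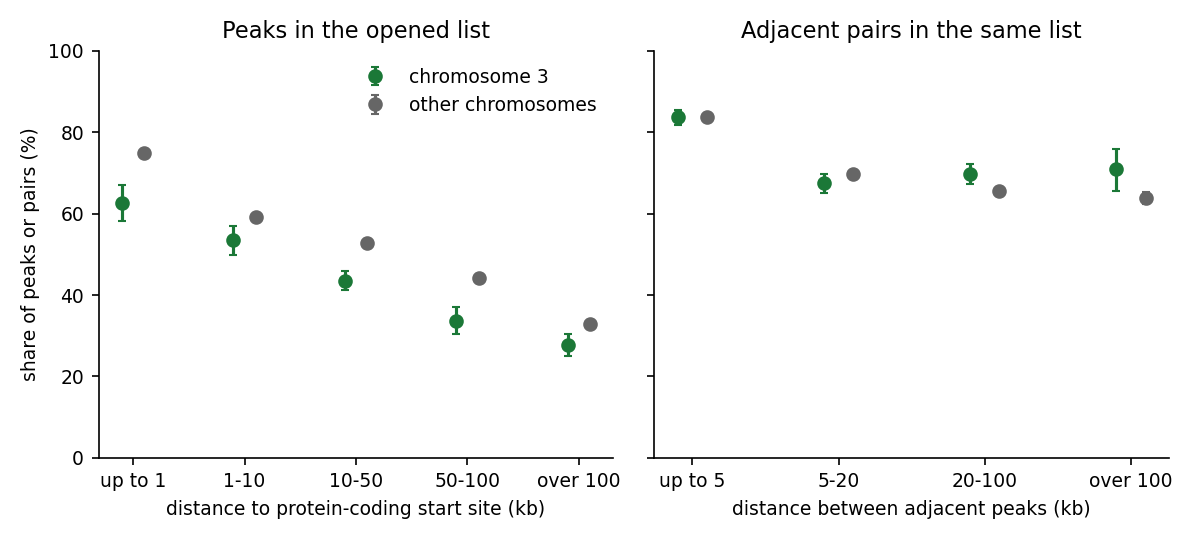
Left, opened share (%) of listed peaks by distance to the nearest protein-coding start site; right, share (%) of adjacent listed peaks that lay in the same list by the distance between them; bars are 95% Wilson intervals. On chromosome 3 the opened share goes from 62.7% near start sites to 27.7% beyond 100 kb, and the same-list share from 83.7% within 5 kb to 71.0% beyond 100 kb.

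Opened and closed peaks of the chromosome also differed in size and strength. The median width was 296 bp (quartiles 190 and 444) for opened peaks and 243 bp (170 and 345) for closed ones, and the median mean normalized count was 38.1 (18.6 and 89.9) against 26.4 (15.3 and 53.2). Median GC content in the central 200 bp was 48.5% and 47.5%, where the other chromosomes had 51.0% and 48.5%. By strength, with quartiles of the mean normalized count set over all listed peaks, 34.8% of the 1153 peaks under the lowest quartile were opened, and 55.4% of the 1093 above the highest. Elsewhere those shares were 43.5% and 69.7%. Among peaks with a mean normalized count of at least 50 the chromosome's opened share was 52.1%, on the other side of an even split, and the share of all listed peaks was then 64.4%.

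The strongest opened peaks were promoters. After Syde2 came the promoter of Magi3, a scaffold protein of cell junctions (1044, chr3:104219981-104220932). After the Lor exon, the strongest closed peaks were an intergenic site at -67501 bp from the start of Noct, a circadian gene (630, chr3:51156411-51157481), and the Miga1 intron peak whose sequence is given above (622, chr3:152308448-152309198).

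Peaks of one list lay next to each other. Of the 4664 pairs of adjacent listed peaks on the chromosome, 74.0% were in the same list (72.7 to 75.2%), and on the other chromosomes 73.1% were. Within 5 kb the share was 83.7% of 1629 pairs, the same value as elsewhere to 3 digits. It was 67.4% from 5 to 20 kb, 69.8% from 20 to 100 kb and 71.0% of 286 pairs beyond 100 kb, where the other chromosomes had 69.7%, 65.5% and 63.9%. For peaks more than 20 kb apart the chromosome 3 value was thus the higher one, a difference that was not tested.

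Closed peaks formed long unbroken runs. The longest held 54 peaks over 3125 kb (chr3:123371795-126497265), with 11 peaks at Ndst4 and 9 at Ndst3, which encode heparan sulfate modifying enzymes, 10 at Tram1l1, 7 at Ugt8a, an enzyme of myelin lipid synthesis, and 6 at Arsj. The next 2 lay close together near the end of the chromosome. One held 52 peaks (chr3:152769364-153490761), 38 of them at St6galnac5 and 9 at Pigk, and the other held 47 (chr3:153560694-154696919), at St6galnac3 (14), Erich3 (9), Cryz (8), Asb17 (7), Slc44a5 (4) and Lhx8 (3), among others. In the 1 Mb from 153 to 154 Mb 53 of 54 peaks were closed, and from 154 to 155 Mb 47 of 48.

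The 2 longest runs of opened peaks were shorter in extent than those of closed peaks and held more genes. The longest had 43 peaks in 439 kb (chr3:87986743-88425406), with 9 at Mef2d, a MADS-box transcription factor gene, 6 at Bcan, which encodes a proteoglycan of brain matrix, 4 at the ammonium transporter gene Rhbg and the rest at 13 further genes. Another had 40 peaks in 267 kb (chr3:89087687-89355080), at the ephrin genes Efna3 (8), Efna1 (5) and Efna4 (3), the epithelial mucin gene Muc1 (5), Adam15 (4) and 10 others. The third, of 28 peaks (chr3:83067624-83863747), covered Dchs2 (14), a cadherin gene, Sfrp2 (8), a secreted WNT modulator, Tlr2 (4) and Plrg1 (2). Runs of at least 20 peaks numbered 27 for closed peaks, with 841 peaks, and 8 for opened peaks, with 225. Closed peaks were also the larger list of the chromosome (2718 against 1947), and no such counts are given for other chromosomes. The longest run on each of 19 other chromosomes ranged from 23 to 74 closed peaks (median 62) and from 14 to 75 opened peaks (median 45). Both values of chromosome 3, 54 closed and 43 opened, lay inside those ranges and under those medians.

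Listed peaks were assigned to 746 protein-coding genes of the chromosome by the nearest start site, which need not be the gene a site acts on. Among the genes with the most opened peaks were Mecom (29), Tbl1xr1 (24), Lmo4 (23) and Foxo1 (21). The most closed were at Adgrl2 (55), Tbl1xr1 (39), St6galnac5 (38) and Rapgef2 (38), followed by Nlgn1, Schip1 and Maml3 with 32 each. Tbl1xr1 and Lmo4, which had 23 closed peaks too, were high on both sides, with peaks as far as 1328 and 632 kb from the start site. Of 142 genes with at least 10 peaks, 22 (15.5%) had closed peaks alone and 6 (4.23%) had opened peaks alone, where the other chromosomes had 10.6% and 5.66% of 2207 such genes. The 6 were Car2, a carbonic anhydrase gene (15 peaks), Dchs2 (14), Wwtr1, Zbtb7b and Mme (11 each) and Adam30 (10). Car2, Zbtb7b, Mme and Adam30 are named because the count is small.

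The Notch pathway was split between its members. Its 5 genes had 43 opened and 67 closed peaks, an opened share of 39.1% beside 41.7% for the chromosome. With peaks assigned within 10 kb of the gene body the share was 50.6% of 81 peaks. Notch2, one of the Notch receptors, had 13 opened and 6 closed peaks, all within 66.4 kb of its start site. Its promoter peak was opened, and so were the strongest intron peaks, with mean normalized counts of 263 (37.1 kb into the gene) and 203 (43.0 kb), whereas its 6 closed peaks had counts of at most 42.3. Aph1a, a subunit of the gamma-secretase complex that cleaves Notch receptors, had 1 peak, opened at the promoter. Hey1, a target gene that encodes a bHLH repressor of the Hes family, had 13 closed peaks and 1 opened peak, a weak one (18.2) at 106 kb. Within 100 kb of Hey1 all 13 were closed, and no listed peak lay at its promoter. Maml3 had 18 opened and 32 closed peaks with an opened promoter, and Fbxw7, which targets Notch for degradation, had 10 opened and 16 closed with a closed promoter.

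Genes of the YAP and TEAD pathway had 38 opened and 24 closed peaks over 6 genes (61.3%). The interval, 48.8 to 72.4%, lay above the 41.7% of the chromosome but included an even split and the 50.8% of all listed peaks. It counts the 62 peaks as separate, although they belong to 6 genes that differed among themselves. Wwtr1, which encodes TAZ, had 11 opened peaks and none closed. They comprised 2 promoter peaks (463 and 30.4), 8 intron peaks with counts from 7.70 to 50.9 and 1 weak intergenic peak (4.03). Ccn1, a matricellular protein gene and YAP target, had 6 opened and 7 closed. The 3 promoter peaks were opened (191, 63.6 and 28.2), while the other 3 opened peaks, with the strongest of the gene among them, and the 7 closed ones (35.1 to 125) lay on both sides away from the promoter. F3, the gene of tissue factor, had 2 opened and none closed, Arhgap29, a GTPase activating protein gene, had 7 and 2, and the membrane protein gene Tm4sf1 had 10 and 7. Cnn3, a calponin gene, ran the other way with 2 opened and 8 closed.

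Neural transcription factor genes and related genes such as Lmo4 were mixed, with 45 opened and 52 closed peaks (46.4%) over the 5 of 6 genes that had peaks. Only 22 of these peaks lay within 100 kb of a start site, and 50% of those were opened. The interval, 36.8 to 56.3%, included both the 41.7% of the chromosome and the 50.8% of all listed peaks. Sox2, which is expressed in SCLC and in neural progenitors, had 18 opened and 15 closed peaks, but only 2 lay within 100 kb, both opened, and the others were up to 518 kb away. Lmo4, a LIM-only cofactor gene, had 23 of each, and 8 opened and 3 closed within 100 kb. Mab21l1 had 3 opened and 9 closed, Zfhx4 had 1 and 2, and Lhx8 had 3 closed. Mab21l2 had no listed peak.

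Synapse, channel and transmitter receptor genes were closed in most cases. Of 18 genes, 13 had listed peaks, 9 of them closed alone, 2 opened alone and 2 mixed, and together they held 128 closed and 10 opened peaks (7.25%, interval 3.98 to 12.8%), beside 41.7% opened for the chromosome and 50.8% for all listed peaks. Nlgn1, a postsynaptic adhesion gene, had 32 closed peaks, 11 of them within 100 kb and 3 at promoters. Kcnmb2, a regulatory subunit of calcium-activated potassium channels, had 30. All 7 peaks of Gria2, an AMPA receptor subunit, were closed, from the promoter (127) to an intron site at 93.7 kb (291). Glrb, the beta subunit of the glycine receptor, had 5 closed.

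Voltage-gated potassium channel genes showed the same pattern. Kcnd3 had 13 closed peaks, Kcna2 had 6, Kcna3 had 2, and Kcnc4 had 7 closed and 1 opened. Kcnab1, an accessory subunit, had 7 closed, and Kcnn3, a calcium-activated channel, had 8 closed and 2 opened. The cation channel gene Trpc4 had 11 closed. The exceptions were Syt6 with 4 opened and Syt11 with 3 opened, both of the synaptotagmin family of vesicle proteins. Chrnb2, Hcn3, Lrrc7, Npy2r and Tacr3 had no listed peak. Closed promoters were seen at 9 of the list's genes and an opened one at Syt11, where the whole chromosome had 110 genes with closed promoter peaks alone and 223 with opened ones alone.

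**Figure D4:**
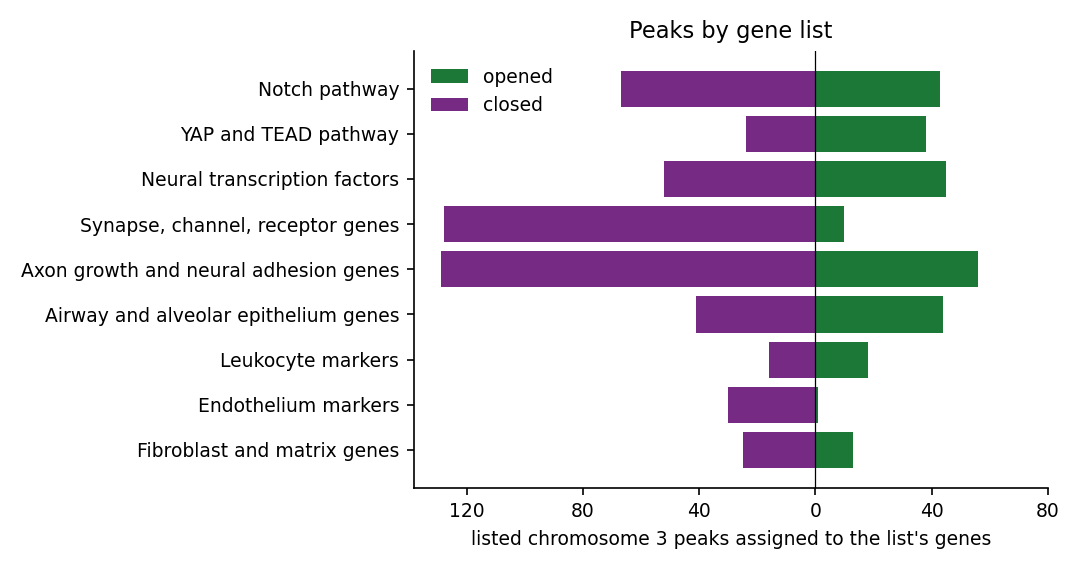
Listed chromosome 3 peaks assigned to the genes of 9 lists, opened to the right and closed to the left of zero (number of peaks). The synapse, channel and receptor list has 128 closed and 10 opened peaks, and the YAP and TEAD list 24 closed and 38 opened.

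Axon growth and neural adhesion genes held 56 opened and 129 closed peaks (30.3%, interval 24.1 to 37.2%), beside 41.7% for the chromosome and 50.8% for all listed peaks. With a minimum mean normalized count of 20 the list stood at 39.7% of 121 peaks, beside 45.3% for the chromosome. Adgrl2 alone gave 20 opened and 55 closed of the peaks. Ank2, the gene of ankyrin-B, had 26 closed peaks and 1 opened, with 8 closed at its promoters. Unc5c, Ntng1 and Stmn2, which act in axon guidance and growth, had 6 closed and 1 opened each, and Pcdh10 had 10 and 3. Negr1 and Slitrk3 had 3 closed each and Pcdh18 had 6. The list was not uniform. Bcan had 6 opened and none closed, Celsr2, a cadherin of planar cell polarity, had 4 and none, the kinase gene Dclk1 had 11 and 3 and Nbea had 7 and 4. Nes had 1 of each, and Olfm3 had no listed peak.

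Airway and alveolar epithelium genes were evenly divided, with 44 opened and 41 closed (51.8%), and the interval of 41.3 to 62.1% included the 41.7% of the chromosome. At promoters 7 of the 16 genes had opened peaks and 1 had closed, where the chromosome as a whole had 223 genes with opened promoter peaks alone and 110 with closed ones alone. Muc1 had 5 opened peaks, the strongest at 278, Efna1 had 5, Cgn, which encodes the tight junction protein cingulin, had 3 and the glutathione transferase gene Gstm2 had 3, each with none closed. Cp, the gene of ceruloplasmin, had 7 opened and 3 closed, Npnt had 10 and 8, and Elovl6, a fatty acid elongase gene, had 3 and 7. Clca1, a goblet cell gene, had 7 closed. Adh7 had 1 opened and 3 closed, Gstm1 1 of each and Ecm1 1 closed. The calcium-binding S100 genes were mixed: S100a6 had 3 opened and 2 closed, S100a10 had 1 and 2, S100a11 had 2 and 2, S100a14 had 1 closed and S100a16 had 4 closed.

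Marker genes of other cells in lung tumors were looked at in the same way. The 13 leukocyte genes had 18 opened and 16 closed peaks (52.9%, interval 36.7 to 68.5%, which included the 41.7% of the chromosome and the 50.8% of all listed peaks). Tlr2 had 4 of each, Bank1 3 and 4, P2ry12 3 and 1, P2ry13 2 and 1, Cd2 2 of each, Ctss and Ptpn22 2 opened, Fcgr1 and P2ry14 2 closed, and Cd53, Ctsk, S100a8 and S100a9 had none. The 3 endothelium genes had 30 closed peaks and 1 opened (3.23%, interval 0.57 to 16.2%, beside the same 41.7% and 50.8%), with 16 closed and 1 opened at the sphingosine phosphate receptor gene S1pr1, 10 closed at Vcam1 and 4 at Emcn. The 7 fibroblast and matrix genes had 13 opened and 25 closed peaks (34.2%), with an interval of 21.2 to 50.1% that included the 41.7% of the chromosome. Of these, Sfrp2 (8 peaks) and Col25a1 (2) were opened alone, Col24a1 (10), Postn (5), Pdgfc (4) and Col11a1 (3) were closed alone, and Fgf2 had 3 of each. Only 2 of the 31 endothelium peaks lay within 10 kb of the gene bodies, both closed. On another chromosome, Pecam1, whose product CD31 marks endothelium, had 1 opened and 1 closed peak. The sort took CD24-positive cells and left out cells stained for CD31 as well as for CD45. Whether cells of these types contributed to the lists was not tested.

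TEAD and AP-1 letters differed between the opened and the closed peaks of chromosome 3 in the same direction as elsewhere. TEAD letters stood in the central 200 bp of 19.8% of opened and 9.68% of closed peaks (intervals 18.1 to 21.7% and 8.62 to 10.8%), and the other chromosomes had 18.1% and 8.70%. AP-1 letters went the other way, with 11.5% of opened and 27.3% of closed peaks, beside 10.6% and 26.3%. FOX letters were in 168 of 1947 opened and 272 of 2718 closed peaks, with overlapping intervals (7.46 to 9.96% and 8.93 to 11.2%), beside 6.75% and 9.68% elsewhere, and RBPJ letters in 18.6% and 15.7%, beside 20.8% and 16.4%. RBPJ letters were thus more frequent in opened peaks on chromosome 3, as elsewhere. The RBPJ intervals overlapped on chromosome 3 (16.9 to 20.4% and 14.4 to 17.1%), while those of the other chromosomes did not. The other chromosomes held many more peaks (38881 opened and 36821 closed), which makes their intervals narrower. The overlap therefore cannot show that RBPJ letters behaved differently on chromosome 3. Peaks were selected on the contrast, so the shares are descriptions, and a match is not a bound site.

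**Figure D5:**
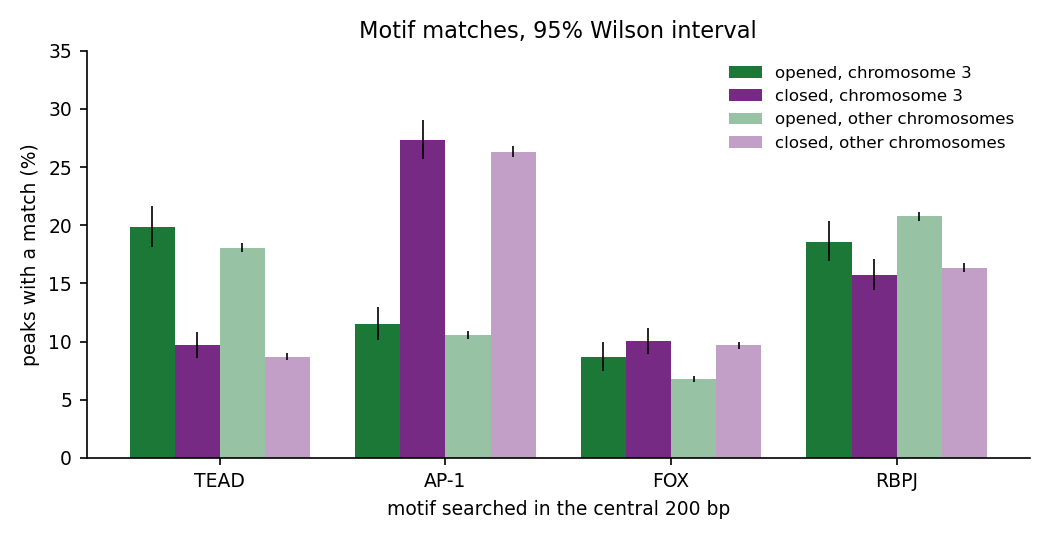
Share of listed peaks (%) with exact motif letters in the central 200 bp, for opened (green) and closed (purple) peaks of chromosome 3 (dark) and of the other chromosomes (pale), with 95% Wilson intervals. TEAD bars are higher for opened peaks (19.8% against 9.68% on chromosome 3), AP-1 bars for closed peaks (27.3% against 11.5%).

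The TEAD and AP-1 differences had the same direction in every window of the chromosome. All 16 windows had at least 20 opened and 20 closed peaks. The TEAD share was higher in opened than in closed peaks in 16 of 16 windows, from 12.1 to 34.8% in opened and from 6.25 to 15.7% in closed peaks. The difference was small in some windows, such as 130 to 140 Mb with 12.1% of 107 opened and 11.2% of 250 closed peaks. The AP-1 share was higher in closed peaks in 16 of 16 (17.5 to 32.9%, against 3.33 to 17.4% in opened peaks). For RBPJ letters the opened share was higher in 14 windows, and for FOX in 6. Gene-rich and gene-poor windows thus differed in how many peaks opened, while the TEAD and AP-1 letters kept their order in both.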

How the data were processed

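ATAC-seq was done on sorted Hes1-GFPhigh and GFPneg cells, 8 libraries from 3 mice. Per the labels and the study's methods, the authors mapped reads to mm10 with Bowtie2 (2.3.4.1), removed duplicates, called narrow peaks with MACS2 using shifted and extended read ends, merged the peaks of all samples, counted reads per peak and selected peaks with DESeq2 (1.28.1). The thresholds were set on the adjusted p and on the size of the change. The deposited lists hold each peak's position and a mean normalized count, a signal averaged by the authors over all libraries. They also hold the authors' own fold changes, errors, statistics and p-values, which were not used, and peaks that were tested but not listed were not analysed here.

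Peak positions were converted to 1-based coordinates. Peaks were placed by their centre: promoter (within 1 kb of any start site in GENCODE vM21 basic), exon, intron or intergenic, and the gene with the nearest protein-coding start site. Windows of 10 Mb started at the first base of the chromosome. GC content and motif letters were read in the central 200 bp of RefSeq GRCm38. Shares have 95% Wilson intervals, which cover counting error only, and no test was run. The intervals count each peak as separate, although adjacent peaks were often in one list. In some gene lists single genes gave many of the peaks. Python 3 with pandas, numpy, scipy and matplotlib was used, and window and share functions were tested on simulated data.

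Some genes, 1 motif and 2 sequences are not reported here, and the counts of the gene lists leave those genes out. The chromosome, the gene lists and the motifs were chosen with earlier results of these data known. Genes were named as members of 9 lists, as the gene with the most peaks in a window, as genes of the 3 longest runs of each list, as the 5 genes with most opened or closed peaks, or for 3 strongest peaks in each direction. Alternatives changed the count minimum, the promoter definition, the merging of peaks, the window size and start, the gene assignment and the motif span.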

Additional observations from a re-analysis of the deposited data

How the results depend on the processing

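The chromosome's opened share of 41.7% was 45.3% among peaks with a mean normalized count of at least 20, 52.1% at a minimum of 50, 39.1% without promoter peaks, 37.9% over 3 kb from a start site, 47.0% as a share of bases and 38.5% as the mean of its windows. All listed peaks gave 55.0%, 64.4%, 47.1%, 46.0%, 57.0% and 46.5% under the same settings, so chromosome 3 was lower under each, while the minimum of 50 put its own majority on the opened side. Each setting drew on the same listed peaks, and the chromosome was chosen with its share known. The lower values are therefore descriptions. Merging peaks of one list within 500 bp gave 41.4%. The share of windows lying wholly under the value of all listed peaks was 56.2% with 5 Mb windows (18 of 32) and 81.2% with windows shifted by 5 Mb (13 of 16), against 68.8%. The share of adjacent peaks in one list was 72.3% without promoter peaks and 70.0% after merging, against 74.0%. Among single windows, 10 to 20 Mb went to 49.5% opened with a minimum of 20, and 100 to 110 Mb to 49.8% without promoter peaks. With peaks assigned within 10 kb of the gene body the Notch list went to 50.6% opened, the neural transcription factor list to 57.1% of only 7 peaks, the endothelium list to 0% of 2 peaks and the YAP and TEAD list to 76.2%. Motif shares rose when whole peaks were searched, with the order of opened and closed peaks kept for the 4 motifs. A stricter p or fold threshold was not run because the authors' test columns were not used. No paired analysis was possible because the files used hold only values over the whole comparison, and for the same reason no library could be left out.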
